A study of Mus musculus with 31 samples.

Results

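The 10 neural crest transcription factor genes Sox10, Sox9, Foxd3, Pax3, Tfap2a, Tfap2b, Tfap2c, Snai1, Snai2 and Twist1 were followed through 31 RNA-seq libraries made from laser-microdissected pieces of embryonic mouse olfactory and trigeminal nerve. They were chosen by symbol among the 47729 genes counted, and all 10 passed the filter on low counts. The study set out to compare olfactory ensheathing cells, the glia of the olfactory nerve, with trigeminal Schwann cells, and with each other along the nerve. All embryos were said to carry the Sox10:H2BVenus BAC transgene, in which a nuclear fluorescent protein is driven from Sox10 regulatory sequence, and no group was without it. Venus fluorescence guided the laser, so the level of Sox10 is no finding between regions.

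The pieces came from flash-frozen cryosections and fell into 7 groups. At E11.5 and E13.5, olfactory nerve (ON) was cut from the lamina propria beneath the olfactory epithelium, giving 4 and 7 libraries. The olfactory nerve layer (ONL) around the olfactory bulb gave 5 libraries at E13.5. At E16.5 there were 4 libraries each of olfactory nerve, of outer ONL (furthest from the bulb) and of inner ONL (closest to it), and 3 of trigeminal nerve (TN) branches near the olfactory system. Sections were pooled within a piece, the pieces outnumber the embryos at E11.5 and E13.5, and regions of a stage were cut from the same embryos, which the labels do not tie to pieces. Some pieces of a group therefore share an embryo at E11.5 and E13.5, and p-values over pieces are too small there. Pieces are tissue, not sorted cells. Total counts ranged from 3512627 to 36705535 per library, and the shallowest 2, both at E13.5, held 3512627 and 5297347.

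The labels of 10 of the 31 libraries differ from the study's own grouping. Libraries whose labels read E13.5 ONL replicates 2 to 5 form the E11.5 nerve group. Those labelled E11.5 ON (replicates 1 to 4), together with E13.5 ON replicate 1, form the E13.5 ONL group. The library labelled E13.5 ONL replicate 1 belongs to E13.5 nerve. This grouping, used below, is that of the group means the study tabulated: a fit free to weight any of the 31 libraries put weight on these sets alone. Markers of olfactory bulb and forebrain neurons (Tbr1, Eomes, Neurod6, Neurod2, Emx1 and Reln, summed) reached 818 to 1099 CPM (read counts scaled to the size of the library) in the 5 libraries grouped as E13.5 ONL. The same list reached 25.4 to 45.8 CPM in the 4 libraries labelled E13.5 ONL but grouped as E11.5 nerve. For the members called in a comparison with E11.5 or E13.5 libraries, the adjusted p under the labels is given too. The E16.5 labels are the same in both, but all libraries share 1 estimate of the spread, so the E16.5 tests move with the grouping too.

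Neural crest cells leave the dorsal edge of the neural tube, migrate, and give rise to peripheral glia, including Schwann cells and olfactory ensheathing cells, and to much of the mesenchyme, cartilage and bone of the face. Snail and Twist proteins are repressors and bHLH factors that loosen epithelial junctions as cells become migratory. AP-2 proteins, Pax3 and Foxd3 act at the neural plate border and in premigratory crest, and SoxE proteins act in migrating crest and its lineages. Sox10 is kept on in glia and melanocytes, whereas Sox9 is the master factor of cartilage, and Twist1, Snai2 and AP-2 genes are also used by facial mesenchyme. Bulk pieces can hold several of these cells.

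GENCODE M21 gene models (GRCm38) place Sox10 (ENSMUSG00000033006) at chr15:79154908-79165240 and Sox9 (ENSMUSG00000000567) at chr11:112782224-112787760. Foxd3 (ENSMUSG00000067261) lies at chr4:99656299-99658622 and Pax3 (ENSMUSG00000004872) at chr1:78101267-78197134. Tfap2a (ENSMUSG00000021359) lies at chr13:40715302-40738376, Tfap2b (ENSMUSG00000025927) at chr1:19208914-19238576 and Tfap2c (ENSMUSG00000028640) at chr2:172549593-172558622. Snai1 (ENSMUSG00000042821) lies at chr2:167538195-167542814, Snai2 (ENSMUSG00000022676) at chr16:14705852-14709385 and Twist1 (ENSMUSG00000035799) at chr12:33957671-33959829. Exons of Foxd3 overlap the predicted gene Gm23366, and those of Tfap2a overlap Gm26688, Gm47061 and Gm47067. The strand setting of the counting is not given in the sources used here, so counts of those 2 members may be shared with these neighbours.

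RefSeq promoters (GRCm38.p6) were at hand for 5 of the 10 genes. The 250 bases before the start are shown for 4 of them because Foxd3 was the gene without a role in cutting that was higher in ONL than in nerve, whereas Tfap2b, Snai1 and Twist1 ran the other way. For Tfap2b, and for Tfap2a, which is not shown, these RefSeq starts lie inside the GENCODE spans given above. Their windows are therefore not upstream of those spans. Capitals mark matches, on either strand, to the AP-2 motif GCCNNNGGC, the SOX motifs ACAAAG and ACAATG, or the Snail and E-box motif CAGGTG.
Foxd3 (chr4:99656049-99656298, + strand): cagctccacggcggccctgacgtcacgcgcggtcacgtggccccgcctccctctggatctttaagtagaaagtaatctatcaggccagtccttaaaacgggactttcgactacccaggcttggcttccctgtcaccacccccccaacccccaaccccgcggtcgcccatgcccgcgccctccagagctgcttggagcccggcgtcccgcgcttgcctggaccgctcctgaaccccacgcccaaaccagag
Tfap2b (chr1:19211804-19212053, + strand): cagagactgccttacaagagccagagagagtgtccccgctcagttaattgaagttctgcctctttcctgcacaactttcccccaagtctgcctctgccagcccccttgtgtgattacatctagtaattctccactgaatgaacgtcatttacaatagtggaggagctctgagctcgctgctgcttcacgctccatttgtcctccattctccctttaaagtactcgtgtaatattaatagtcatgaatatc
Snai1 (chr2:167537945-167538194, + strand): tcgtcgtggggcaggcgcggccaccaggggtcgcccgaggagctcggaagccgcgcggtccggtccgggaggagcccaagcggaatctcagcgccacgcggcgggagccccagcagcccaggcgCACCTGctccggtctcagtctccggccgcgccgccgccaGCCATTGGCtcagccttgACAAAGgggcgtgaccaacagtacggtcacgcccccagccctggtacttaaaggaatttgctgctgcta
Twist1 (chr12:33957421-33957670, + strand): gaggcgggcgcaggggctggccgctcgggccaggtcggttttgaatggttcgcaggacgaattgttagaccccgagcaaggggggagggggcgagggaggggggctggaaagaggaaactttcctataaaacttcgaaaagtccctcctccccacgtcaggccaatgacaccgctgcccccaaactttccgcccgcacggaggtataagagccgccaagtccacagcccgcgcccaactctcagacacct
Snai1 alone of these 4 held matches: 1 to GCCNNNGGC, 1 to ACAAAG and 1 to CAGGTG, at 87, 69 and 126 bases before the start. The wider E-box CANNTG, which also covers CAGGTG, matched once in Snai1, Foxd3 and Tfap2b and not in Twist1. Neither of the 2 Tfap2a promoters held a match to any motif. Among 32851 promoters of the same length, 13.7% held GCCNNNGGC, 10.7% ACAATG, 17.2% CAGGTG and 66.2% CANNTG, and 5408 of the 32851 held ACAAAG. A match is a description of the letters and not a bound site.

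At E16.5 the ONL and the olfactory nerve held these genes in different proportions. Foxd3 was higher in outer ONL than in olfactory nerve, as was Sox10, while Pax3, Tfap2a, Tfap2b, Tfap2c, Snai2 and Twist1 were lower. By edgeR's quasi-likelihood test, adjusted over all 19332 genes tested and called at an adjusted p under 0.05, 8 of 10 members differed, 2 higher and 6 lower, against 22% of all genes (10.2% higher and 11.8% lower). In 8 of 10 the groups did not overlap, as in 24.3% of all genes. Their median log2 fold change was -1.60, and that of all genes 0.01. Between outer ONL and trigeminal nerve 6 of 10 were called, 3 higher and 3 lower, against 25.8% of all genes (12.3% lower and the rest higher), and 6 did not overlap (34% of all genes). Between the 2 nerves 5 of 10 were called, 3 higher and 2 lower in ON, against 23.6% (13% higher and 10.6% lower), and 6 did not overlap (33.7%). With the libraries grouped by label the calls in these 3 comparisons numbered 7, 5 and 5 (16.1%, 20.3% and 17.8% of all genes), Foxd3 and Sox10 being the members lost. Without TMM scaling, the scaling of library sizes used throughout, the share of higher calls over all genes moved from 46.4% to 34.1%, from 52.5% to 62.7% and from 55.1% to 77.5% in these 3 comparisons, in that order. In such tissue pieces, fewer cells of a type and less RNA per cell cannot be told apart. Sox10, whose reporter guided the cutting, is counted among the members called in all 3 comparisons under the study's grouping.

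**Figure D1:**
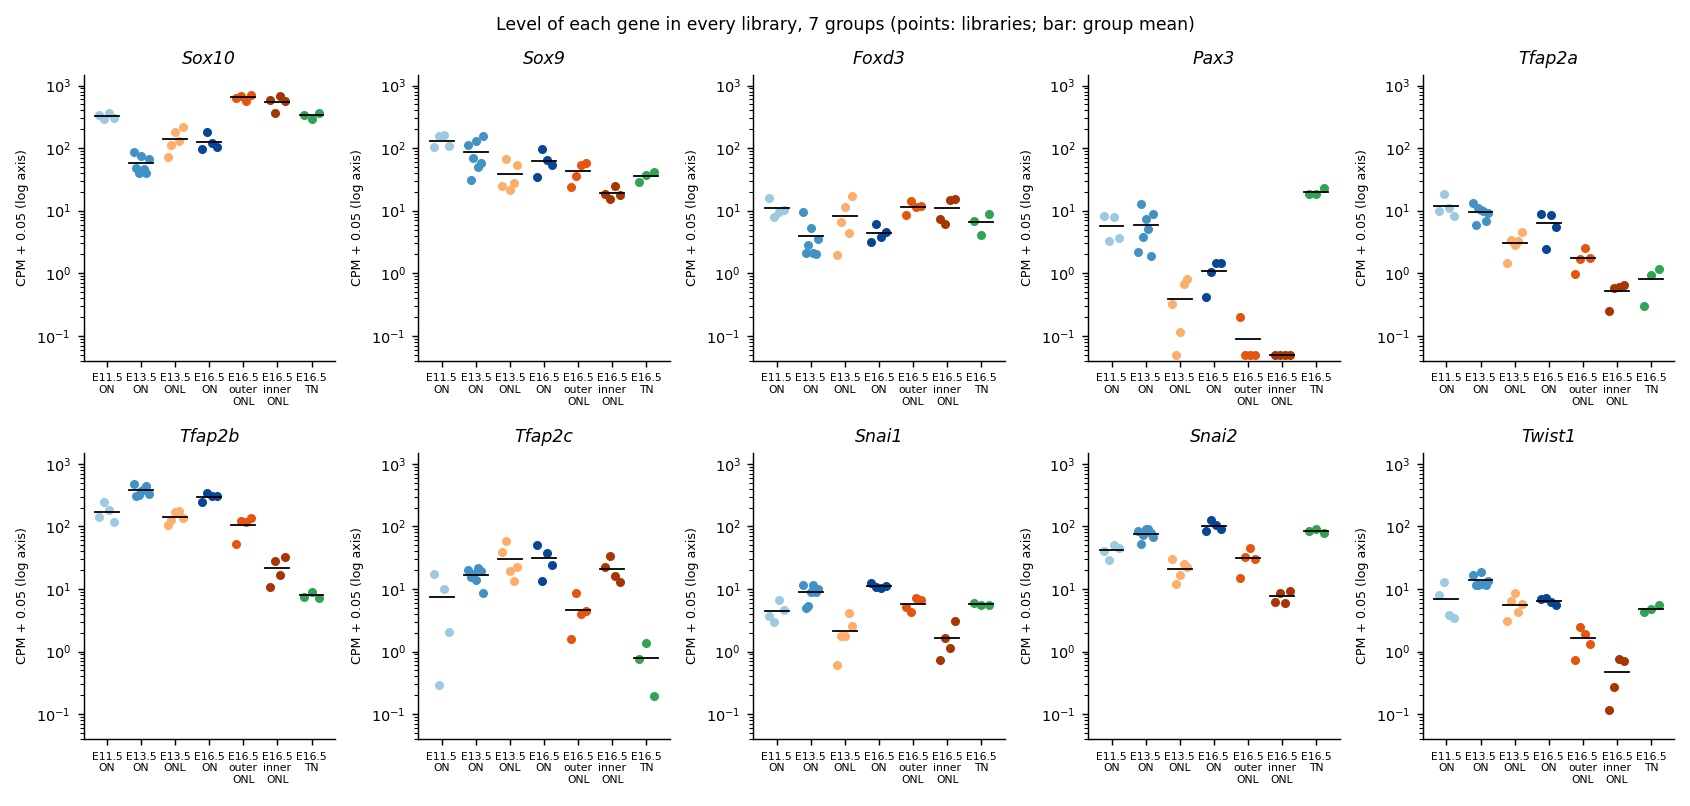
Level of each of the 10 genes in every library, as CPM with 0.05 added, on a log axis, for E11.5 and E13.5 olfactory nerve (ON), E13.5 ONL, and E16.5 ON, outer ONL, inner ONL and trigeminal nerve (TN). Points are libraries and bars are group means, and the 4 inner ONL libraries sit at 0 CPM for Pax3, whereas trigeminal nerve sits between 18.3 and 22.9 CPM.

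Among the SoxE genes, Sox10 at E16.5 was 624, 674, 572 and 712 CPM in outer ONL replicates 1 to 4 and 97.5, 180, 122 and 104 CPM in ON replicates 1 to 4. Trigeminal nerve held 337, 297 and 371 CPM, and inner ONL 594, 363, 675 and 566 CPM. Outer ONL stood above trigeminal nerve, and trigeminal nerve above olfactory nerve, without overlap. Given as a description only, because the reporter guided the cutting, outer ONL was 5.13-fold above olfactory nerve and 1.93-fold above trigeminal nerve. What set these folds was not tested. The call against trigeminal nerve (adjusted p = 0.0133) was lost without trigeminal nerve replicate 2 (adjusted p = 0.0548). Sox9 followed another order: 24.2, 36.05, 54.4 and 58.9 CPM in outer ONL, 35.02, 96.9, 65.3 and 52.9 CPM in ON, and 28.6, 36.7 and 42.1 CPM in TN. These ranges overlapped, and no difference among the 3 tissues passed the test in the fit of all libraries (outer ONL against olfactory nerve, log2 -0.53, 95% interval -1.30 to 0.25, adjusted p = 0.393). Between the 2 nerves Sox9 passed with those groups fitted alone (log2 0.86, adjusted p = 0.0396) and with the replicate block (adjusted p = 0.0485), against 0.191 in the fit of all libraries. Per kilobase of exon, Sox9 made up 20.9 to 28.4% of the sum of Sox9 and Sox10 in olfactory nerve, 2.79 to 6.56% in outer ONL and 5.90 to 8.35% in trigeminal nerve. Sox8, the other SoxE gene and no member, is not in that sum. It was at 77.3 CPM in outer ONL, 25.7 CPM in ON and 19.4 CPM in TN.

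Foxd3, a forkhead factor of premigratory crest and early glial precursors, was low in all groups. It reached 8.36, 14.3, 11.53 and 12.03 CPM in outer ONL against 3.09, 6.13, 3.77 and 4.54 CPM in ON. Outer ONL lay above ON in every library, and the difference was 2.64-fold (log2 1.40 ± 0.49 SE, adjusted p = 0.0379 by edgeR). It is a weak call: it held in 2 of the 8 fits that left out 1 library, those without olfactory nerve replicate 2 or outer ONL replicate 1, and adjusted p ranged from 0.0346 to 0.105 over the 8. Trigeminal nerve lay between, at 6.71, 4.08 and 8.82 CPM, overlapping both. Relative to 100 counts of Sox10, Foxd3 gave 1.34 to 2.12 counts in outer ONL, 1.37 to 2.38 in trigeminal nerve and 3.09 to 4.37 in olfactory nerve, so that the order seen in CPM turned round. This is not particular to Foxd3, because Sox10 itself was 5.13-fold higher in outer ONL than in olfactory nerve. Every other member also gave more counts per 100 of Sox10 in olfactory nerve than in outer ONL.

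Of the 10 genes, the AP-2 members Tfap2b and Tfap2c had the largest folds between the 2 nerves. Tfap2b was 248, 344, 304 and 301 CPM in ON, 51.5, 122, 118 and 136 CPM in outer ONL and 7.32, 8.91 and 7.24 CPM in TN, with no overlap anywhere in that order. Olfactory nerve exceeded trigeminal nerve 38.2-fold (log2 5.26 ± 0.37 SE, adjusted p = 1.57e-11). Outer ONL lay 2.80-fold below olfactory nerve (log2 -1.49 ± 0.27 SE, adjusted p = 0.000138) and 13.6-fold above trigeminal nerve (adjusted p = 7.92e-10). Tfap2b is known from facial mesenchyme and kidney as well as from crest. The study's in situ hybridization gave Tfap2b as an example of candidates found in adjacent tissue rather than in glia. Its signal lay in mesenchyme around the ONL, around olfactory or trigeminal fascicles, or both.

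Tfap2a, needed for crest induction and facial development, was at 8.66, 2.41, 8.45 and 5.54 CPM in ON and 0.921, 1.63, 2.49 and 1.71 CPM in outer ONL. The groups met at their edges (2.41 against 2.49 CPM), and outer ONL was 3.69-fold lower (log2 -1.89 ± 0.42 SE, adjusted p = 0.00131). In trigeminal nerve it was 0.252, 0.902 and 1.10 CPM, 8.26-fold below olfactory nerve (adjusted p = 2.20e-05). Against outer ONL this difference did not pass the test (log2 1.16, adjusted p = 0.0716), though it did without outer ONL replicate 1 (adjusted p = 0.0404) or trigeminal nerve replicate 3 (adjusted p = 0.0477). Tfap2c was at 51.2, 13.6, 37.4 and 24.1 CPM in ON, 1.53, 8.61, 3.91 and 4.33 CPM in outer ONL and 0.721, 1.33 and 0.147 CPM in TN. Its 3 groups did not overlap: outer ONL was 6.82-fold below olfactory nerve (adjusted p = 0.00446), and olfactory nerve 42.5-fold above trigeminal nerve (log2 5.41 ± 0.93 SE, adjusted p = 4.79e-05), or log2 6.18 without trigeminal nerve replicate 2. Outer ONL was 6.23-fold above trigeminal nerve (log2 2.64, adjusted p = 0.0204). That call was lost without outer ONL replicate 2 (adjusted p = 0.0775), trigeminal nerve replicate 1 (adjusted p = 0.0680) or replicate 3 (adjusted p = 0.105), and without trigeminal nerve replicate 2 the difference was log2 3.39.

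Snai2 and Twist1 were higher in olfactory nerve than in outer ONL, whereas Snai1 did not pass the test. Snai2 was 85.9, 124, 107 and 89.8 CPM in ON and 85.1, 91.2 and 78.4 CPM in TN, ranges that overlap (log2 0.26, 95% interval -0.27 to 0.79). Outer ONL held 15.1, 32.1, 45.8 and 30.3 CPM, below every library of both nerves. Its deficit was 3.29-fold against olfactory nerve (log2 -1.72 ± 0.26 SE, adjusted p = 8.72e-06) and 2.75-fold against trigeminal nerve (adjusted p = 0.000117). Twist1 gave 6.93, 7.18, 6.18 and 5.43 CPM in ON, 4.18, 4.76 and 5.51 CPM in TN and 0.691, 2.45, 1.85 and 1.28 CPM in outer ONL. It was lower in outer ONL than in olfactory nerve by 4.07-fold (log2 -2.02 ± 0.43 SE, adjusted p = 0.000735) and than in trigeminal nerve by 3.05-fold (adjusted p = 0.00713). Snai1 was at 12.3, 10.6, 10.4 and 10.97 CPM in ON, 5.06, 4.21, 7.26 and 6.53 CPM in outer ONL and 5.88, 5.59 and 5.55 CPM in TN. Olfactory nerve lay above both others in every library, yet neither difference passed the test (adjusted p = 0.0741 and 0.0908), and both did with DESeq2 (adjusted p = 0.0193 and 0.0280). Against outer ONL, Snai1 also passed with the replicate number as a block (adjusted p = 0.0138), though the labels do not show that these numbers mark embryos. It passed as well with the 2 groups fitted alone (adjusted p = 0.0123) and with the E16.5 libraries alone (adjusted p = 0.0294).

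Pax3 set the trigeminal nerve apart. This paired-box factor is known from dorsal neural tube, crest, immature Schwann cells, melanoblasts and muscle precursors. It was 18.4, 18.3 and 22.9 CPM in TN and 0.371, 0.990, 1.43 and 1.39 CPM in ON, a difference of 18.8-fold (log2 -4.24 ± 0.70 SE for olfactory minus trigeminal nerve, adjusted p = 4.19e-05). In outer ONL 2 counts were found in replicate 1 and none in the others, and in inner ONL none in any of the 4 libraries. Taking 3 counts per library as the limit of detection (0.204 CPM on average in outer ONL and 0.211 CPM in inner ONL, for counting error only), Pax3 was at least 97.3-fold lower in outer ONL than in trigeminal nerve and at least 5.12-fold lower than in olfactory nerve (adjusted p = 7.71e-08 and 0.00125). No fold is given between inner and outer ONL. Muscle and melanoblast marker lists summed to more in trigeminal pieces than elsewhere. The skeletal muscle list (Myod1, Myf5, Myog, Actc1, Myh3 and Tnnt1) summed to 98.9 to 149 CPM there and to at most 16.45 CPM in the other E16.5 groups. The melanoblast list (Dct, Tyr, Tyrp1, Pmel and Mlana) summed to 10.5 to 23.2 CPM there and to at most 8.75 CPM elsewhere. All 5 muscle genes tested and 1 of 4 melanoblast genes tested were lower in outer ONL than in trigeminal nerve, and 4 of 5 and 1 of 4 were lower in olfactory nerve. The melanoblast gene was Tyrp1 in both (13.35 CPM in TN, 0.145 in outer ONL and 0.217 in ON). The median log2 change of that list was -0.107 for outer ONL minus TN. Mitf, a melanocyte factor outside the list, ran the other way, at 8.87 CPM in outer ONL, 4.51 in ON and 1.92 in TN. What part muscle or pigment cells had in the Pax3 level was not tested.

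**Figure D2:**
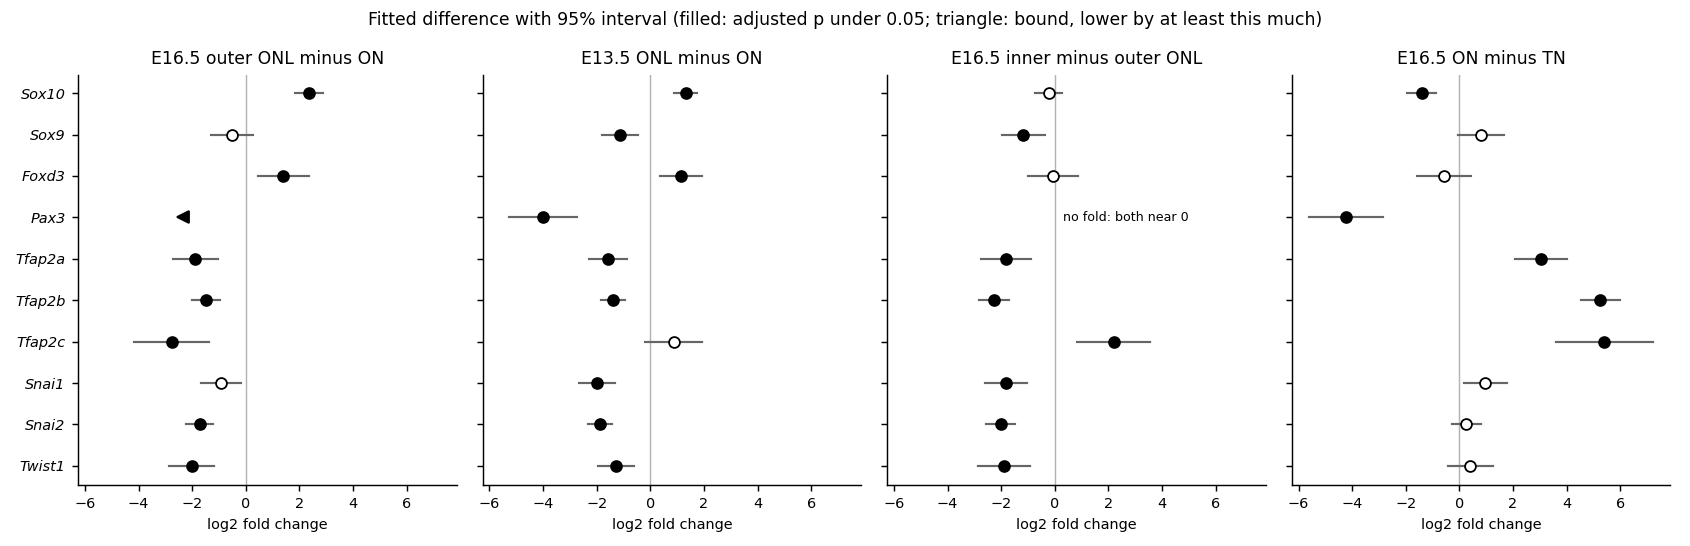
Fitted log2 fold change of each gene with its 95% interval in 4 comparisons between regions. Filled points have an adjusted p under 0.05, open points do not, and a triangle marks a bound (lower by at least this much); Sox10 and Foxd3 lie right of 0 in both comparisons of ONL with olfactory nerve, and Pax3, Tfap2a, Tfap2b, Snai1, Snai2 and Twist1 lie left of it.

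Markers of other tissues moved with these differences. From olfactory nerve to outer ONL, all 7 cartilage genes tested were lower (summed 945 to 5653 CPM against 311 to 986 CPM), as were 8 of 9 olfactory epithelium genes (298 to 687 CPM against 12.4 to 36.3 CPM). Of 8 mesenchyme and fibroblast genes 4 were lower and none higher (11190 to 18460 CPM against 6883 to 12730 CPM), among them Prrx1, a mesenchymal homeobox gene, at 22.4 against 87.6 CPM (log2 -1.97). No marker of these 3 lists was at 0 in every library of either group, although 1 epithelium marker did not exceed 3 counts in outer ONL. In trigeminal nerve the mesenchyme sum was highest, 27150 to 31670 CPM, its cartilage sum was 578 to 717 CPM and its epithelium sum 51.3 to 85.8 CPM. Mural cell genes were lower in outer ONL than in olfactory nerve for 3 of 5, endothelial genes for 1 of 5 and macrophage genes for 0 of 5. Genes of the meningeal list ran the other way (3 of 5 higher in outer ONL, with Ptgds at 164 against 2.79 CPM). Ptgds is no marker of meninges alone here. The study's in situ hybridization showed it in the glia of the ONL as well as in leptomeninges. Genes of the radial glial list were higher in outer ONL for 3 of 5 and lower for 1. Among the higher was Hes5 (30.8 against 2.46 CPM), which the study's in situ hybridization placed in the glia of the ONL. Among glial markers 5 of 9 were higher in outer ONL and 1 lower, with Fabp7 at 18930 against 1600 CPM, whereas Gfra3 was at 25.1 against 85.7 CPM. What part these tissues had in the levels of the 10 genes was not tested.

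**Figure D3:**
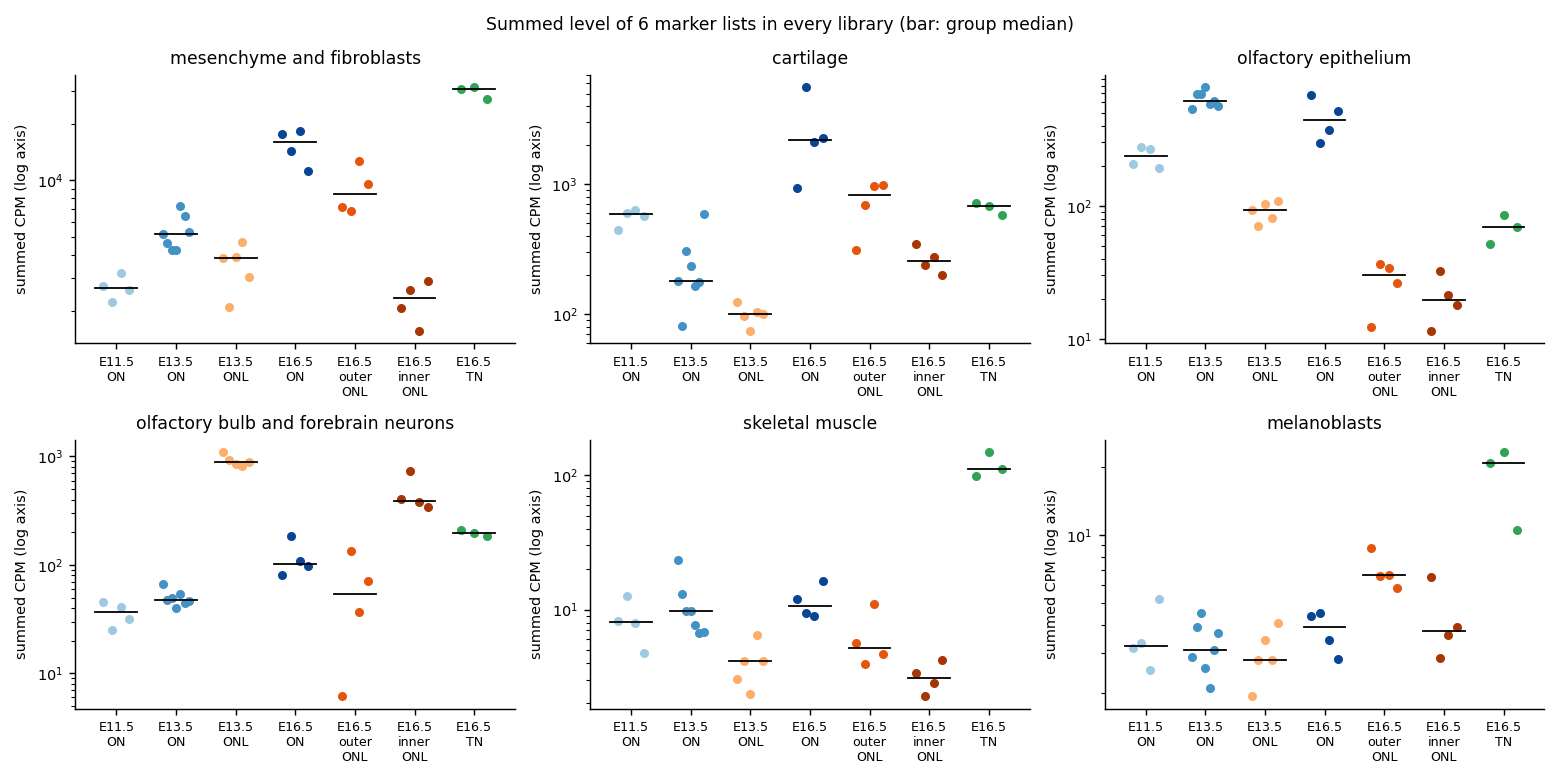
Summed CPM of 6 lists of marker genes in every library, on log axes, with bars at group medians. The mesenchyme and muscle sums peak in trigeminal nerve, the cartilage sum in E16.5 olfactory nerve, the epithelium sum in E13.5 olfactory nerve and the bulb neuron sum in E13.5 ONL.

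Inner ONL was then compared with outer ONL to ask how the genes vary with distance from the bulb. Tfap2c was higher in inner ONL, and Sox9, Tfap2a, Tfap2b, Snai1, Snai2 and Twist1 were lower, which made 7 of 10 called against 14.1% of all genes (8.2% higher and 5.94% lower). In 5 of 10 the groups did not overlap (18.8% of all genes), and with grouping by label 5 were called (8.58%), without Sox9 and Tfap2c. The levels of Tfap2b were 10.6, 28.4, 16.6 and 32.01 CPM in inner ONL replicates 1 to 4, below all of outer ONL, and 4.86-fold lower (log2 -2.28 ± 0.28 SE, adjusted p = 1.53e-06). Snai2, at 6.25, 8.73, 5.89 and 9.40 CPM, was 4.07-fold lower (adjusted p = 3.56e-06), also without overlap. Snai1 at 0.673, 1.58, 1.10 and 3.07 CPM was 3.55-fold lower (adjusted p = 0.00161), and Tfap2a at 0.202, 0.527, 0.550 and 0.603 CPM was 3.56-fold lower (adjusted p = 0.00745), both without overlap. Twist1 fell to 0.0673, 0.226, 0.707 and 0.663 CPM, from 1 to 11 counts a library, with the edges of the groups overlapping (3.74-fold, adjusted p = 0.00745). With the 2 groups fitted alone its adjusted p was 0.0528. Sox10 and Foxd3 (7.26, 6.09, 14.8 and 15.4 CPM in inner ONL) overlapped outer ONL and did not pass the test (log2 -0.23, 95% interval -0.74 to 0.27, and log2 -0.08, 95% interval -1.02 to 0.85).

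Unlike Tfap2a and Tfap2b, Tfap2c was higher in inner ONL, at 22.6, 33.2, 16.2 and 12.7 CPM in inner ONL against at most 8.61 CPM in outer ONL, 4.57-fold higher (log2 2.19 ± 0.70 SE, adjusted p = 0.0309). The groups did not overlap, but the call was lost without outer ONL replicate 1, 3 or 4 or inner ONL replicate 1 or 2, with adjusted p of 0.0202 to 0.112 over the 8 fits. The AP-2 gene Tfap2e, which is no member, was higher in inner ONL as well (11.99 against 1.57 CPM, adjusted p = 0.00694). At E13.5 Tfap2e was at 73.6 CPM in ONL and 0.0437 CPM in nerve under the study's grouping. Per kilobase of exon, Tfap2c made up 40.1 to 78.1% of the sum of Tfap2a, Tfap2b and Tfap2c in inner ONL. In that sum, which leaves out Tfap2d and Tfap2e, Tfap2b made up 87.8 to 93.3% in outer ONL and 71.3 to 92.8% in olfactory nerve. Sox9, at 18.5, 15.3, 25.1 and 17.9 CPM in inner ONL, was 2.26-fold lower (adjusted p = 0.0480). The groups overlapped slightly, and the call held in 2 of 8 fits, those without outer ONL replicate 1 or inner ONL replicate 3 (adjusted p of 0.0237 to 0.147 over the 8). Bulb and forebrain neuron genes were higher in inner ONL for 6 of 6 (344 to 727 CPM against 6.14 to 134 CPM in outer ONL), and lower were 7 of 8 mesenchyme genes (1558 to 2903 CPM in inner ONL) and 6 of 7 cartilage genes (201 to 344 CPM). Their part was not tested. By the study's account these pieces do not cleanly part the glia of the inner layer from those of the outer. The study also found bulb tissue represented in inner ONL, and for that reason compared outer ONL with the nerves.

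**Figure D4:**
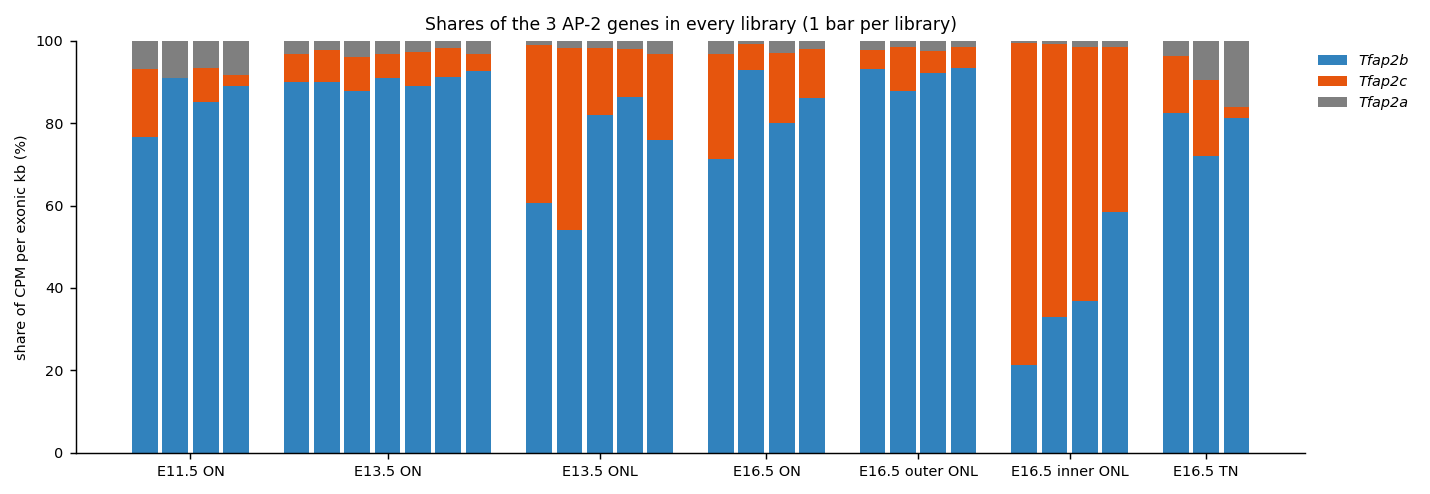
Share of Tfap2b, Tfap2c and Tfap2a in their summed CPM per kilobase of exon, in percent, 1 stacked bar per library, in the 7 groups. Tfap2b takes 71.3 to 93.3% in E16.5 olfactory nerve and outer ONL, and Tfap2c takes 40.1 to 78.1% in inner ONL. The AP-2 genes Tfap2d and Tfap2e are not in the sum.

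At E13.5 the same question, ONL against olfactory nerve, gave the widest set of calls. Sox10 and Foxd3 were higher in ONL, and Sox9, Pax3, Tfap2a, Tfap2b, Snai1, Snai2 and Twist1 lower, 9 of 10 members against 31.5% of all genes (15.4% higher and 16.1% lower), and in 6 the groups did not overlap (19.6% of all genes). Their median log2 fold change was -1.34 and that of all genes -0.03. Under the deposited labels only Sox10 was called (1 of 10, against 17.7% of all genes), so these results rest on the study's grouping. The 9 calls stood without the shallowest 2 libraries, an alternative chosen after seeing the data.

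The Snail, Twist and AP-2 levels at E13.5 are as follows, with the ONL libraries in the order of the labels E11.5 ON (replicates 1 to 4) and E13.5 ON (replicate 1). Snai2 was 29.6, 11.8, 16.9, 24.8 and 22.6 CPM in ONL and 53.0 to 92.0 CPM (median 78.8) in nerve, 3.69-fold lower in ONL without overlap (log2 -1.88 ± 0.23 SE, adjusted p = 9.15e-08; by label adjusted p = 0.283). Snai1 was 0.553, 1.73, 1.69, 4.05 and 2.47 CPM in ONL and 4.97 to 11.52 CPM (median 8.96) in nerve, 4.01-fold lower (adjusted p = 2.83e-05; by label 0.543). Twist1 was 3.04, 6.34, 8.58, 4.26 and 5.77 CPM in ONL and 11.6 to 18.9 CPM (median 12.01) in nerve, 2.41-fold lower (adjusted p = 0.00466; by label 0.459). For all 3 genes every ONL library lay below every nerve library. Tfap2b, at 105, 125, 170, 174 and 138 CPM in ONL against 311 to 472 CPM (median 367), was 2.65-fold lower (adjusted p = 1.60e-05; by label 0.239). Tfap2a, at 1.38, 3.31, 2.80, 3.22 and 4.51 CPM against 5.84 to 13.4 CPM (median 9.82), was 2.99-fold lower (adjusted p = 0.000725; by label 0.221 with ONL the higher). Tfap2c was at 38.5, 59.1, 19.6 and 22.03 CPM in 4 ONL libraries and lowest in the one labelled E11.5 ON replicate 4, overlapping the 8.60 to 21.5 CPM (median 17.5) of nerve, and did not pass the test (log2 0.87, 95% interval -0.19 to 1.93), though it did with the 2 groups fitted alone (adjusted p = 0.0374).

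Pax3 at E13.5 was 0.277, 0, 0.065, 0.623 and 0.752 CPM in ONL, from 0 to 21 counts, and 1.85 to 12.7 CPM (median 5.11) in nerve. The groups did not overlap, and ONL was lower (log2 -4.00 ± 0.64 SE, adjusted p = 1.69e-05; by label 0.836), or log2 -4.83 without the library labelled E13.5 olfactory nerve replicate 1. Of the SoxE genes, Sox9 was 24.9, 68.2, 21.3, 28.0 and 53.5 CPM in ONL and 31.03 to 156 CPM (median 69.7) in nerve. It overlapped, and was 2.20-fold lower in ONL (adjusted p = 0.00952; by label 0.138 with ONL the higher). Sox10 was 71.4, 110, 179, 131 and 219 CPM in ONL and 39.9 to 85.4 CPM (median 48.9) in nerve, overlapping, with a fold of 2.48 (adjusted p = 1.43e-05; by label 0.00111). Sox9 made up 31.9 to 63.6% of the sum of Sox9 and Sox10 per kilobase in E13.5 nerve and 8.10 to 31.3% in ONL. Foxd3 was 1.94, 6.55, 11.2, 4.36 and 17.2 CPM in ONL and 1.999 to 9.53 CPM (median 2.77) in nerve, overlapping and 2.20-fold higher in ONL (adjusted p = 0.0291; by label 0.0906). Its call held in 6 of 12 fits that left out 1 library and was lost without the libraries labelled E11.5 olfactory nerve replicate 3 or E13.5 olfactory nerve replicates 1, 2, 3, 5 or 6 (adjusted p up to 0.225). Beside these differences, all 9 olfactory epithelium genes were lower in ONL (69.9 to 109 CPM against 539 to 786 CPM). Lower too were 4 of 7 cartilage genes and 3 of 5 mural cell genes. Of 8 mesenchyme genes 4 were lower and 2 higher, and of 5 meningeal genes 3 were higher and 1 lower. All 6 bulb neuron genes were higher. Their part was not tested.

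The ONL minus nerve difference itself changed between E13.5 and E16.5 for 2 of 10 members, against 12.3% of all genes (5.59% higher and 6.75% lower). This share was near the background. At E16.5 outer ONL alone stood for the layer in this test. By label 2 were called as well, Pax3 and Tfap2a (12.5% of all genes). Tfap2c went from ONL not below nerve at E13.5 to outer ONL below nerve at E16.5 (change of log2 -3.64 ± 0.88 SE, adjusted p = 0.00508 by edgeR, and 0.168 by label). This held in all 20 fits that left out 1 library. Inner ONL, which was not in the test, held 12.7 to 33.25 CPM of Tfap2c at E16.5, overlapping the 13.6 to 51.2 CPM of olfactory nerve. For Sox10, whose reporter guided the cutting, the difference widened by log2 1.05 (adjusted p = 0.0388; by label 0.597), a call kept in 8 of those 20 fits. For Snai2 and Tfap2b the change was small and did not pass the test, at log2 0.16 (95% interval -0.49 to 0.81) and log2 -0.08 (95% interval -0.76 to 0.60).

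**Figure D5:**
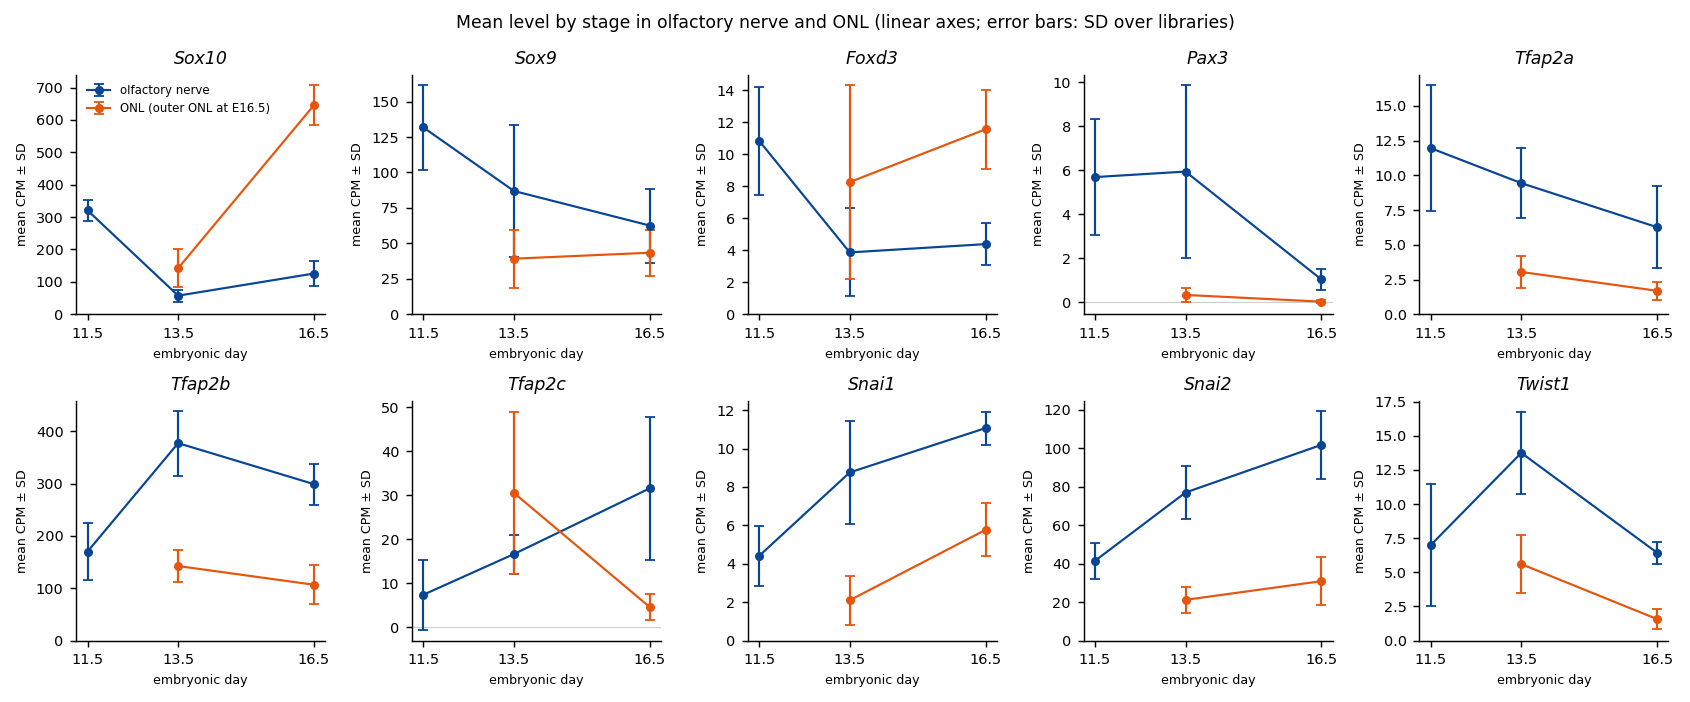
Mean CPM with SD over libraries by embryonic day, on linear axes, in olfactory nerve (all 3 stages) and in ONL (the later 2 stages, outer ONL at E16.5). The nerve line lies above the ONL line at both stages for Sox9, Pax3, Tfap2a, Tfap2b, Snai1, Snai2 and Twist1, and below it for Sox10 and Foxd3.

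Along the olfactory nerve, Tfap2b, Snai1, Snai2 and Twist1 rose and Sox10 and Foxd3 fell from E11.5 to E13.5, 6 of 10 members against 36.6% of all genes (20.2% higher and 16.4% lower), and 3 did not overlap (21.2%). The E11.5 libraries, in the order of the labels E13.5 ONL replicates 2 to 5, held 338, 287, 358 and 299 CPM of Sox10, above every E13.5 nerve library, and the fall was 5.58-fold (adjusted p = 8.78e-10; by label 0.214). Foxd3, at 15.7, 7.93, 9.50 and 10.2 CPM, fell 2.80-fold with overlapping groups (adjusted p = 0.00586; by label 0.745). Tfap2b rose from 142, 243, 180 and 116 CPM by 2.22-fold, without overlap (adjusted p = 0.000533; by label 0.0147). Snai2 rose from 40.3, 29.0, 51.2 and 45.1 CPM by 1.86-fold, without overlap (adjusted p = 0.00291; by label 0.000783). Snai1 rose from 3.60, 2.91, 6.56 and 4.56 CPM by 0.9966 on the log2 scale with some overlap (adjusted p = 0.0233; by label 0.00646). That call was lost without the library labelled E13.5 ONL replicate 2 (adjusted p = 0.0634) or replicate 3 (adjusted p = 0.0771). Twist1 rose by 0.97 on the log2 scale from 7.92, 12.9, 3.78 and 3.36 CPM, also overlapping (adjusted p = 0.0350; by label 0.0807), a call lost without the libraries labelled E13.5 ONL replicates 1, 4 or 5 or E13.5 olfactory nerve replicate 4 (adjusted p of 0.0558 to 0.146).

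The other 4 members did not pass the test over that interval. Tfap2c was spread over 17.5, 0.244, 9.83 and 2.04 CPM at E11.5 (log2 1.17, adjusted p = 0.137), and passed without the library labelled E13.5 ONL replicate 2 (log2 2.06, adjusted p = 0.0180). Pax3 was at 8.05, 3.18, 7.88 and 3.65 CPM at E11.5 (log2 0.07, 95% interval -0.95 to 1.10), though by label it was called (adjusted p = 0.000736). Tfap2a was at 8.31 to 18.6 CPM in the 4 libraries and Sox9 at 105, 155, 160 and 107 CPM, both overlapping E13.5 nerve, and both were called higher at E13.5 by label (adjusted p = 0.00712 and 0.0351). The labels and the study's grouping therefore give different members, although each gives 6 calls (17.5% of all genes by label). Olfactory epithelium genes rose for 8 of 9 over the same interval (193 to 279 CPM at E11.5). Mesenchyme genes rose for 7 of 8 and fell for 1 (summed 2218 to 3199 CPM at E11.5 and 4225 to 7278 CPM at E13.5). The glial list, which does not hold Sox10, rose for 6 of 9 genes and fell for 1, whereas Sox10 fell. That list summed to 280 to 718 CPM at E11.5 and 626 to 1267 CPM at E13.5. Endothelial genes rose for 5 of 5 and mural cell genes for 4 of 5, and meningeal genes fell for 4 of 5. Their part was not tested.

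From E13.5 to E16.5 Sox10 rose and Pax3 and Twist1 fell in the nerve, 3 of 10 members called, 1 higher and 2 lower, against 28.8% of all genes (15.2% higher and 13.6% lower), a share near the background. By label 1 was called (25.1%). The same 3 members were those without overlap between the stages (21.2% of all genes). Pax3 fell 5.70-fold without overlap (log2 -2.51 ± 0.61 SE, adjusted p = 0.00271; by label 0.0108). Twist1 fell 2.14-fold without overlap (adjusted p = 0.0245; by label 0.119), a call lost without the libraries labelled E13.5 olfactory nerve replicate 4 or E16.5 olfactory nerve replicates 3 or 4 (adjusted p of 0.0549 to 0.0888). Sox10 rose 2.19-fold (adjusted p = 0.000359; by label 0.157). The AP-2 and Snail genes and Sox9 and Foxd3 overlapped between the stages and did not pass the test, with Snai2 at log2 0.40 (95% interval -0.03 to 0.83). Tfap2c passed with the 2 groups fitted alone (log2 0.94, adjusted p = 0.0201). In the nerve over this interval cartilage genes rose for 7 of 7, glial genes for 6 of 9 and endothelial genes for 4 of 5. Mesenchyme genes rose for 7 of 8 and fell for 1, and the part of these lists was not tested. Between E13.5 ONL and E16.5 outer ONL 5 of 10 were called, 2 higher and 3 lower, against 41.9% of all genes (21.9% higher and 20% lower). In 4 of 10 the groups did not overlap (32.2% of all genes), and both shares were near the background. By label 6 were called (35.2%): Sox10 higher, and Sox9, Pax3, Tfap2a, Tfap2b and Twist1 lower. Sox10 rose 4.53-fold (adjusted p = 4.58e-08; by label 0.0159) and Snai1 2.64-fold (adjusted p = 0.00297; by label 0.997). Tfap2c fell 6.58-fold (adjusted p = 0.00203; by label 0.229) and Twist1 3.61-fold (adjusted p = 0.000601; by label 0.000226), these 4 without overlap. Pax3, at 0 to 0.752 CPM at E13.5, was at least 1.68-fold lower at E16.5 (adjusted p = 0.0228; by label 1.27e-05), a call lost without the library labelled E13.5 olfactory nerve replicate 1 or outer ONL replicates 2, 3 or 4 (adjusted p up to 0.149). In ONL over this interval 6 of 8 mesenchyme genes, 6 of 7 cartilage genes, 7 of 9 glial genes and 5 of 5 mural cell genes rose and all 6 bulb neuron genes fell, and their part was not tested.

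Ordered by mean level, Sox10 ran from 646 ± 61.0 CPM in outer ONL (SD, n = 4) through inner ONL, trigeminal nerve and E11.5 nerve (321 ± 33.0 CPM, n = 4), each overlapping the next. E13.5 ONL and E16.5 nerve followed, overlapping each other, and E13.5 nerve was below both means (57.4 ± 18.1 CPM, n = 7). Sox9 had E11.5 nerve at the top (132 ± 30.2 CPM) and inner ONL at the bottom (19.2 ± 4.19 CPM), and only the step from trigeminal nerve to inner ONL was without overlap between neighbours. Foxd3 ran from outer ONL (11.56 ± 2.45 CPM) to E13.5 nerve (3.86 ± 2.75 CPM) with every neighbouring pair overlapping. Tfap2b was highest in E13.5 nerve (378 ± 62.4 CPM) and lowest in trigeminal nerve (7.82 ± 0.942 CPM, n = 3). Snai2 was highest in E16.5 nerve (102 ± 17.6 CPM) and lowest in inner ONL (7.57 ± 1.76 CPM). Twist1 was highest in E13.5 nerve (13.8 ± 3.02 CPM) and Snai1 in E16.5 nerve (11.1 ± 0.865 CPM). Tfap2a was highest in E11.5 nerve (11.96 ± 4.53 CPM). Compared per kilobase of exon, Snai2 exceeded Snai1 in every library and made up 70.5 to 97.7% of their sum. In E16.5 olfactory nerve the highest member per kilobase was Snai2 (50.3 ± 8.71 CPM per kb), close to Tfap2b (47.2 ± 6.23) and Sox10 (41.2 ± 12.3), and in outer ONL it was Sox10 (212 ± 19.98), well above Tfap2b (16.8 ± 5.92).

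Of 30 other neural crest transcription factor genes, 28 were tested, and they did not share one direction. Between outer ONL and olfactory nerve 7 were higher and 7 lower (median log2 fold change -0.14, all genes 0.01), between outer ONL and trigeminal nerve 9 and 8 (median 0.18), and between olfactory and trigeminal nerve 8 and 5 (median 0.70). Zic1, a zinc-finger gene also counted among the meningeal markers, was at 15.9 CPM in outer ONL and 0.109 CPM in TN (adjusted p = 1.60e-07). Msx1, a homeobox gene of facial mesenchyme, was at 194.9 ± 61.9 CPM in TN against 11.53 CPM in outer ONL and 14.1 CPM in ON (adjusted p = 1.62e-06 and 5.38e-06). Msx2 was at 3.91 CPM in ON, 2.20 CPM in TN and 0.213 CPM in outer ONL, which was lower than both (adjusted p = 0.0123 and 0.0440). Snai3, the third Snail gene, was at 1.41 CPM in ON and 0.153 CPM in outer ONL (adjusted p = 0.0457), and Lmo4 was lower in olfactory than in trigeminal nerve (68.5 against 205 CPM, adjusted p = 1.89e-07).

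Over the 31 libraries the genes most alike to each member were found by Pearson's r of log2 CPM, given without p because the libraries share region, stage and embryos. Snai2 was closest to Mmp2, a matrix metalloproteinase (r = 0.98), then Dse (0.95) and Ldb2 (0.95). Twist1 was closest to Prrx2 (0.95), Synpo (0.94) and Scarf2 (0.93), and Tfap2b to Kctd1 (0.94), Hpse2 (0.93) and Bmp4 (0.91). Tfap2a was closest to Six2 (0.92), Pax3 to Sulf1 (0.87) and Snai1 to Col26a1 (0.87), a collagen gene. Sox10 was closest to Wscd2 (0.93) and Zfp385a (0.93), Sox9 to Tcf7l2 (0.86), Tfap2c to Cacnb2 (0.85) and Foxd3 to Pgp (0.85). Among the members the closest pairs were Tfap2a with Tfap2b (0.86), Snai1 with Snai2 (0.82) and Foxd3 with Sox10 (0.81), and the most opposed was Sox10 with Twist1 (-0.73).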

How the data were processed

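RNA-seq was made from laser-microdissected 8 µm cryosections with SMART-seq V4 and Nextera XT and sequenced on an Illumina NextSeq. The authors aligned the reads to mm10 with TopHat2 2.1.0 and counted them per gene with HTSeq, and the deposited values are these raw counts; the strand setting is not given in the sources used here. The 1 row without a gene name was left out. Libraries were grouped as in the study's group means, which differ from the labels for 10 of 31, with the labels as an alternative. The members and all lists were chosen with earlier results of these data known.

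Counts were scaled by TMM and filtered by filterByExpr, and 1 quasi-likelihood fit (edgeR 4.0.16, R 4.3.3) held all 31 libraries with a term per group. P-values were adjusted by Benjamini-Hochberg over 19332 genes and called under 0.05. CPM divides counts by the scaled library size. Folds against groups at or under 3 counts per library are bounds from that floor. Named were all members, from each of 13 lists up to 2 genes called higher and 2 lower with the largest changes in each comparison of the E16.5 nerves and outer ONL, and per member the 3 genes with the highest Pearson r of log2 CPM (prior count 2); of these only some are printed. Promoters are those of RefSeq GRCm38.p6. The fit was tested on simulated data. Same-numbered libraries of outer ONL and ON at E16.5 deviated together with r over 0.1 in 4 of 4 pairs (0.131 to 0.262). Pairs with other numbers there ranged from -0.234 to 0.226. Between inner and outer ONL 2 of 4 same-numbered pairs had r over 0.1 (-0.0712 to 0.189, other pairs -0.194 to 0.1). Between outer ONL and TN it was 1 of 3, and between ON and TN 0 of 3. Whether the numbers mark embryos is therefore not settled. Alternatives were total-count and RLE scaling, no and stricter filters, a fold rule, DESeq2 1.42.0, groups alone, E16.5 alone, a replicate block and leaving out each library.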

Additional observations from a re-analysis of the deposited data

Results flagged for a closer look

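In the E13.5 nerve group, Foxd3 stood at 9.53 CPM in the library labelled E13.5 ONL replicate 1, far above the other 6, which lay between 1.999 and 5.17 CPM. In outer ONL, Pax3 was at 0.153 CPM in replicate 1, a level of 2 counts, and at 0 in the others. These were 2 of 60 gene and group values examined for a sample far from the rest, and chance gives about 1 in 20.

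With outer ONL alone standing for E16.5, the ONL minus nerve difference changed from E13.5 for 2 genes, by a test of that difference. For Sox10 it rose by 1.05 on the log2 scale (adjusted p = 0.0388 by edgeR), and for Tfap2c the change was -3.64 (adjusted p = 0.00508). The Sox10 call held in 8 of 20 fits that left out 1 library and the Tfap2c call in 20 of 20. Neither was called with the libraries grouped by label (adjusted p = 0.597 and 0.168).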

How the results depend on the processing

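Of 51 differences called for a member, 51 kept direction and call with DESeq2, with RLE scaling and with the stricter filter, 26 of 26 with the E16.5 libraries alone, 49 with no filter, 48 with total counts, 47 with a rule of at least 1 on the log2 scale, 46 of 49 with groups compared alone and 23 of 23 without the shallowest 2 E13.5 libraries (added after seeing the data). Leaving out 1 library kept 437 of 489. Grouping by label kept 30 and turned 3; the counts of members called fell to 1 for E13.5 ONL minus nerve and 1 for E16.5 minus E13.5 nerve. By label the log2 change was 0.70 for Sox9, 0.59 for Tfap2a and -0.78 for Tfap2c in E13.5 ONL minus nerve, 1.14 for Sox9 (adjusted p = 0.0351) and -0.95 for Tfap2c in E13.5 minus E11.5 nerve, -0.005063 for Snai1 and -0.69 for Snai2 in E16.5 outer ONL minus E13.5 ONL, and -0.57 for Snai1 and -1.22 for Sox9 in the change of the ONL minus nerve difference. These 9 had the opposite sign in the study's grouping. Some smaller differences also turned, among them 2 called by label: Sox9 in outer ONL minus E13.5 ONL (0.13 to -1.56, adjusted p = 0.00297) and Tfap2a in E13.5 minus E11.5 nerve (-0.34 to 1.57, adjusted p = 0.00712). For that change, 1 member was called with total counts, 1 with groups alone, and 1 to 2 when a library was left out. The rule of at least 1 gave 3 for E13.5 minus E11.5 nerve, and groups alone gave 5 for E16.5 minus E13.5 nerve; why was not tested.

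With the replicate number as a block the calls were 8 for outer ONL minus ON, 5 for outer ONL minus TN, 7 for ON minus TN and 7 for inner minus outer ONL. These fits held the 2 groups alone, where Pax3 was below the filter in outer ONL minus ON. In outer ONL minus ON the block made Snai1 a call (adjusted p = 0.0138), as did groups alone (adjusted p = 0.0123). Of the main calls tested, the block lost Twist1 in outer ONL minus TN (adjusted p = 0.0651). Between outer ONL and TN it called 3317 of 16160 genes, against 4836 with these groups alone and no block and 4989 of 19332 in the fit of all libraries. Over all genes, the rule of at least 1 called 2789 against 4256 in outer ONL minus ON, 3667 against 6087 in E13.5 ONL minus nerve, 3920 against 7071 in E13.5 minus E11.5 nerve, 2374 against 5564 in E16.5 minus E13.5 nerve and 4594 against 8095 in outer ONL from E13.5 to E16.5. Grouping by label called 1658 against 2733 in inner minus outer ONL, 3421 against 6087 in E13.5 ONL minus nerve and 3380 against 7071 in E13.5 minus E11.5 nerve. Scaling by total counts moved the median log2 change of all genes to -0.127 for outer ONL minus ON, 0.13 for outer ONL minus TN and 0.244 for ON minus TN. Depth limits Pax3 in ONL and Twist1 and Tfap2a in inner ONL, which rest on few counts.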
